A study of Arabidopsis thaliana with 12 samples.

Results

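The 10 genes described here encode the enzymes and partners that make small RNAs in Arabidopsis thaliana and the Argonaute proteins that use them: DCL1, DCL2, DCL3, DCL4, HYL1, SE, HEN1, HST, AGO1 and AGO4. They were chosen by name from knowledge of the pathway, with earlier results of these data known. All 10 were found by locus among the 32833 genes of the deposited table. Messenger RNA from whole seedlings of the accession Col-0, 10 days old, was sequenced in 12 libraries that form 4 groups of 3. Wild-type and atdamt1 mutant seedlings were each taken as controls and after heat. Controls are labelled 0 h and heat libraries 2.5 h, so time and heat cannot be told apart. The labels give no temperature, no mutant allele and no origin of the replicates, so the p-values rest on the variation among libraries, which may be technical. The series title names METTL4-mediated DNA adenine methylation and thermotolerance, and the comparison of treatments and genotypes is the question of the design.

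In plants, Dicer-like (DCL) enzymes cut folded or paired RNA into short duplexes, and an Argonaute (AGO) protein keeps 1 strand as a guide. DCL1 acts with the double-stranded-RNA-binding protein HYL1 and the zinc-finger protein SE to cut microRNAs (miRNAs) from hairpin transcripts. HEN1 methylates the duplex ends, HST, a relative of animal exportins, acts in miRNA biogenesis and transport, and AGO1 silences the miRNA targets. DCL2, DCL3 and DCL4 make small interfering RNAs (siRNAs), and AGO4 binds those that direct DNA methylation. Poly(A) libraries measure the messenger RNAs of these proteins and not the small RNAs.

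The pathway is known to act on itself: miR162 targets the DCL1 messenger, miR168 targets the AGO1 messenger, and miR838 lies in an intron of DCL1. The miRNAs and the matching sites are shown because they join the members DCL1 and AGO1 to their own products. Sequences are from RefSeq, build TAIR10.1, written 5′ to 3′, with the miRNA seed (bases 2 to 8) in capitals. In the sites the capitals mark the bases that face the seed, and a lower-case base within that stretch is the unpaired one.

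miR162a-3p: uCGAUAAAccucugcauccag
miR168a-5p: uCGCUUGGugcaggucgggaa
miR838: uUUUCUUCuacuucuugcaca
DCL1 site for miR162a-3p: ctggatgcagaggTaTTATCGa
DCL1 site in the other annotated transcript: ctggatgcagaggTTgTATTAt
AGO1 site for miR168a-5p: ttcccgagctgcaTCAAGCTa

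The mature miRNAs lie at chr5:2634936-2634956 (minus strand), chr4:10578652-10578672 (plus strand) and chr1:28635-28655 (plus strand). The DCL1 site spans the junction of exons 12 and 13 in the coding sequence, with blocks at chr1:27522-27533 and chr1:27618-27627. It pairs with miR162a-3p with 0 mismatches and 1 unpaired base. In the transcript whose exon 12 ends at position 27536 the junction falls otherwise, and the match has 2 mismatches, 1 G:U pair and 1 unpaired base. The AGO1 site lies in coding exon 2 at chr1:17891529-17891549 (minus strand), with 2 mismatches and 1 G:U pair. The MIR838 locus lies in intron 14 of DCL1, which spans chr1:28432-28707.

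These hairpin transcripts were close to undetected in the poly(A) libraries. MIR162A was listed with 1 to 8 reads per library, and it was the only miRNA locus of 6 that passed the filter on low values. MIR162B, MIR168A and MIR168B were at 0 in all 12 libraries. MIR403, whose product targets AGO2, had 1 read in 1 library, and MIR838 had 20 reads over all libraries with 0 in 4 of them. A count of 0 allows up to 3 reads per library, for counting error only.

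The values are RPKM, reads per kilobase of gene model relative to the reads of the library, as deposited by the authors. Library depths recovered from the RPKM steps were 21720000 to 23519000 reads. The members rested on 40 reads (HEN1 in 1 heat library) to 3026 reads (AGO1 in 1 control library). AT1G19340, an MT-A70 family methyltransferase gene taken as the gene of the mutant, averaged 2.87 RPKM in wild type and 1.002 RPKM in atdamt1 in control, and 1.39 against 0.342 RPKM after heat, with no overlap between genotypes. These differences did not pass the limma test (adjusted p = 0.114 and 0.208). Leaf marker genes summed to 14300 to 20000 RPKM in every library, a sum carried by RBCS1A, which was called lower with heat in both genotypes on the deposited scale. The other leaf markers, LHCB1.1 (ratio of mean RPKM 4.85 in wild type and 5.84 in atdamt1) and LHCB2.1 (7.98 and 13.4), were called higher with heat under all 4 scalings, and their part in the changes below was not tested. Flower markers summed to at most 0.877 RPKM and seed-storage markers to at most 0.253 RPKM. Root markers (PYK10, SCR and SHR) summed to 1570 to 2050 RPKM in wild-type control and 182 to 429 RPKM in wild-type heat, and to 1330 to 2030 and 322 to 376 RPKM in atdamt1. In each genotype 2 of the 3 root markers fell with heat, and their part was not tested either. In whole seedlings, fewer cells of a type and less RNA per cell cannot be told apart.

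By group means AGO1 was the most abundant member and DCL3 the least in all 4 groups. On the RPKM scale, which is per length, wild-type control levels ran from AGO1 at 34.7 ± 4.10 (SD, n = 3) through SE at 20.2 ± 3.27, AGO4 at 10.9 ± 1.71 and HYL1 at 7.58 ± 0.405 to DCL1 at 4.56 ± 0.416. Each of these 5 stood above the next with no overlap between libraries. HST (3.73 ± 0.347), DCL2 (2.99 ± 0.461), HEN1 (2.22 ± 0.574) and DCL4 (2.13 ± 0.114) followed, and each overlapped its neighbour in that order. DCL3 closed the order at 0.869 ± 0.0605 RPKM. The first 5 places were the same in all 4 groups, although DCL1 and HST overlapped in atdamt1 control. HST stood above DCL2 in both controls and below it in both heat groups, where the ranges of the pair overlapped. The ranges of DCL3 and of HEN1, the next member above it there, also overlapped in both heat groups.

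**Figure D1:**
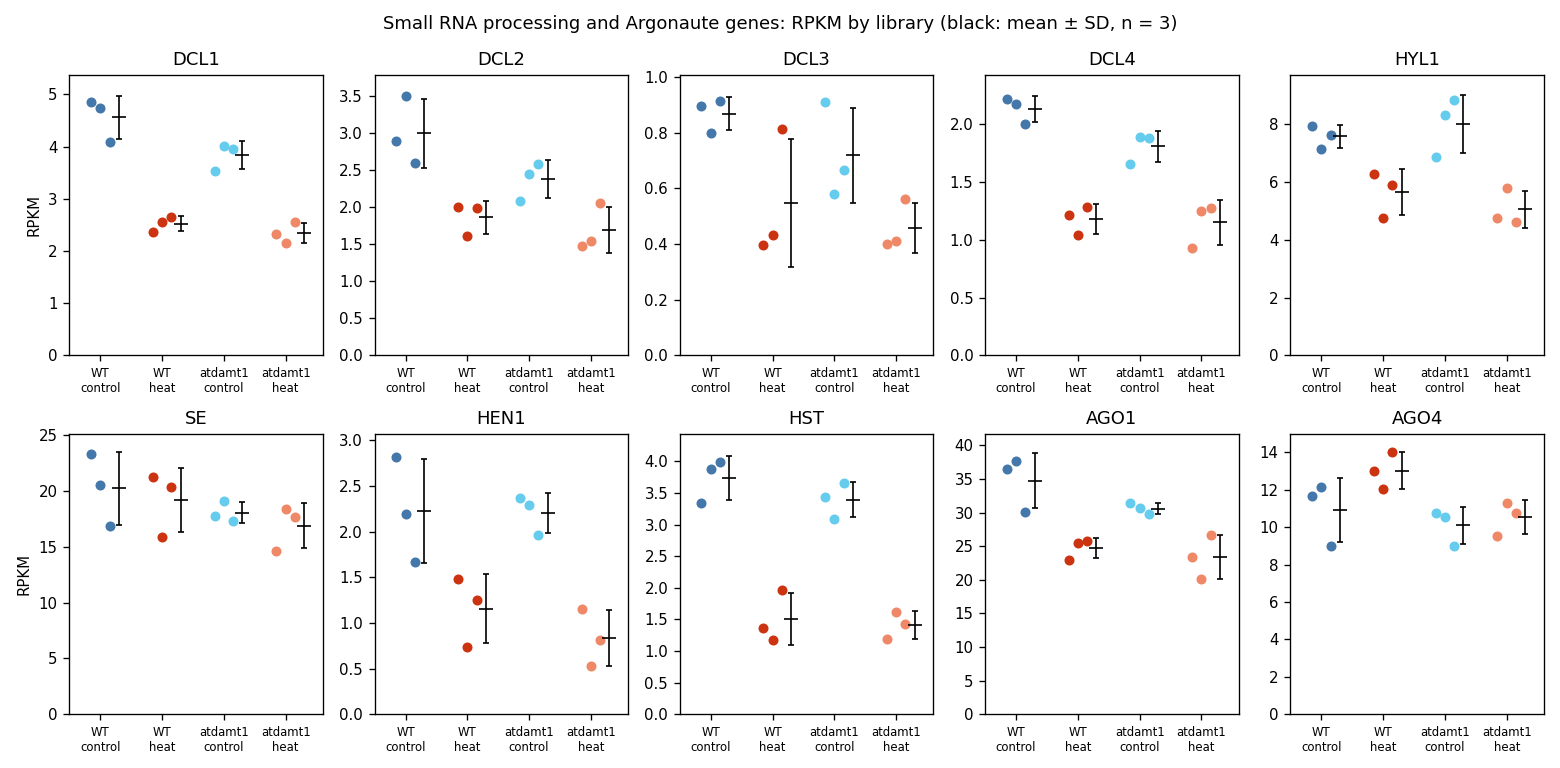
RPKM of the 10 members in each of the 12 libraries (points) with the mean and SD of each group of 3 (black); each panel has its own axis from 0. DCL1, DCL2, DCL4, HYL1, HEN1, HST and AGO1 have every heat library below every control library of the same genotype, while SE and AGO4 overlap between treatments, all on the deposited scale. Such a fall without overlap was met by 56% of all genes tested in wild type and 58.6% in atdamt1.

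Of the 9 members tested, 7 were lower after heat in wild type and 0 were higher by limma on log2(RPKM + 1), with Benjamini-Hochberg adjusted p below 0.05 over 17628 genes. The background was high: 52.6% of all genes tested were called lower and 9.41% higher. In atdamt1 the same 7 members were lower and 0 higher, against 56.2% and 10.3% of all genes. The median gene itself moved by -0.41 (log2) with heat in the wild type and by -0.44 in the mutant, and the median of the members moved by -0.48 and -0.39. In wild type 6 of the 9 members lay below the median gene, and 4 of 9 did in atdamt1. After scaling by the median of ratios, which sets the median gene near 0, 27.4% of genes were lower and 28% higher in wild type, and 27.3% and 27.5% in atdamt1. Under that scaling 2 members were lower and 2 higher in each genotype. The wild-type pair of falls was DCL1 and HST, the atdamt1 pair was HEN1 and HST, and the members called higher were AGO4 and SE in both.

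HST (AT3G05040, chr3:1401171-1408302, minus strand, build TAIR10.1 here and below) had the largest fall of the members in each genotype on the deposited log2(RPKM + 1) scale. In atdamt1 the ratio of means was lower for HEN1 (0.378), and HEN1 also fell further there under median-of-ratios scaling (-0.52 against -0.51). For HST the libraries held 3.34, 3.88 and 3.98 RPKM in wild-type control and 1.36, 1.18 and 1.96 RPKM after heat. In atdamt1 they held 3.44, 3.10 and 3.65 RPKM in control and 1.18, 1.62 and 1.43 RPKM after heat. Every heat library was below every control library. The ratio of mean RPKM after heat to control was 0.402 in wild type and 0.415 in the mutant. In log2(RPKM + 1) the difference was -0.93 ± 0.13 (SE; limma adjusted p = 9.6e-05) and -0.87 ± 0.13 (adjusted p = 0.000146). HST was the only member called lower as deposited and under median-of-ratios, TMM and quantile scaling in both genotypes. Such a call under all 4 scalings was met by 22.1% of all genes in wild type and 24.8% in atdamt1. Relative to the median gene, HST moved by -0.52 in wild type and by -0.43 in atdamt1. With the share of chloroplast-encoded genes as a covariate the atdamt1 value was -0.51 and no longer passed (adjusted p = 0.0775). That share did not overlap between control and heat libraries of atdamt1, so a smaller change and lost precision cannot be told apart.

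DCL1, the miRNA-making Dicer (AT1G01040, chr1:23121-31227, plus strand), held 4.85, 4.74 and 4.08 RPKM in wild-type control and 2.36, 2.55 and 2.66 RPKM after heat. In atdamt1 it held 3.53, 4.02 and 3.96 RPKM, then 2.33, 2.16 and 2.55 RPKM. All heat libraries lay below all controls. The log2 difference was -0.66 ± 0.10 in wild type (limma adjusted p = 0.000164) and -0.53 ± 0.10 in atdamt1 (adjusted p = 0.000691). After median-of-ratios scaling it was -0.27 (adjusted p = 0.0302) in wild type and -0.13 (adjusted p = 0.271) in atdamt1. Under quantile scaling neither passed. DCL1 carries an annotated antisense transcript (AT1G03993, 788 bases of overlap), which was at 0 in all libraries, and PPa1 overlaps 58 bases of its exons on the opposite strand. The strand setting of the counts is not given in the sources used here.

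Of the 2 protein partners of DCL1, HYL1 was called lower after heat and SE was not. HYL1 (AT1G09700, chr1:3137649-3140353, minus strand) held 7.95, 7.15 and 7.64 RPKM in wild-type control and 6.28, 4.76 and 5.91 RPKM after heat. In atdamt1 it went from 6.88, 8.32 and 8.83 RPKM to 4.77, 5.79 and 4.61 RPKM. Its groups did not overlap in either genotype. The log2 difference was -0.37 ± 0.12 in wild type (limma adjusted p = 0.0207) and -0.57 ± 0.12 in atdamt1 (adjusted p = 0.00170), but 0.06 and -0.11 after median-of-ratios scaling, neither called. The wild-type call was lost without control replicate 1 (-0.34, adjusted p = 0.0622) or heat replicate 2 (-0.27, adjusted p = 0.0885). HYL1 shares 36 bases with AT1G09690, a gene on the same strand with up to 549 RPKM.

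SE (AT2G27100, chr2:11572397-11576658, plus strand) held 23.3, 20.5 and 16.8 RPKM in wild-type control and 21.3, 15.9 and 20.4 RPKM after heat. In atdamt1 it held 17.8, 19.1 and 17.3 RPKM, then 14.6, 18.4 and 17.7 RPKM. The treatments overlapped in both genotypes. The log2 difference was -0.07 ± 0.14 (95% interval -0.38 to 0.23; limma adjusted p = 0.676) and -0.10 ± 0.14 (-0.40 to 0.21; adjusted p = 0.555). Its sign turned after median-of-ratios scaling, where SE was called higher at 0.40 (adjusted p = 0.0149) and 0.41 (adjusted p = 0.0134). Under quantile scaling the values were 0.23 and 0.28 and did not pass. Relative to the median gene SE moved by 0.34 in each genotype.

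HEN1, the small RNA methyltransferase (AT4G20910, chr4:11185936-11191123, minus strand), held 2.81, 2.19 and 1.67 RPKM in wild-type control and 1.48, 0.739 and 1.25 RPKM after heat. The atdamt1 libraries held 2.36, 2.29 and 1.96 RPKM, then 1.15, 0.530 and 0.817 RPKM. Neither pair of groups overlapped, although the wild-type ranges nearly met. On the log2 scale HEN1 changed by -0.58 ± 0.18 (limma adjusted p = 0.0143) and -0.82 ± 0.18 (adjusted p = 0.00175). In wild type the call was lost without control replicate 1 (-0.45, adjusted p = 0.0629) or heat replicate 2 (-0.43, adjusted p = 0.0656). After median-of-ratios scaling HEN1 was lower in atdamt1 (-0.52, adjusted p = 0.0319), and the wild-type value of -0.27 did not pass.

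Among the siRNA-making Dicers, DCL4 (AT5G20320, chr5:6859212-6869307, minus strand), which makes trans-acting siRNAs, held 2.22, 2.17 and 2.0 RPKM in wild-type control and 1.21, 1.04 and 1.28 RPKM after heat. For atdamt1 the values were 1.65, 1.89 and 1.88 RPKM, then 0.926, 1.25 and 1.27 RPKM. All heat libraries were below all controls. DCL4 changed on the log2 scale by -0.52 ± 0.11 (limma adjusted p = 0.00148) and -0.39 ± 0.11 (adjusted p = 0.00872). After median-of-ratios scaling it was -0.22 and -0.07, and neither passed.

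DCL2 (AT3G03300, chr3:767880-776214, minus strand), which takes part in antiviral silencing, held 2.89, 3.50 and 2.59 RPKM in wild-type control and 2.01, 1.61 and 1.98 RPKM after heat. The mutant libraries held 2.09, 2.45 and 2.58 RPKM, then 1.48, 1.54 and 2.05 RPKM. The groups did not overlap in either genotype, by a narrow margin in atdamt1. DCL2 changed on the log2 scale by -0.48 ± 0.13 (limma adjusted p = 0.00717) and -0.33 ± 0.13 (adjusted p = 0.0402). The atdamt1 call did not hold when any of 5 libraries was left out: wild-type heat replicate 3 (adjusted p = 0.0512), control replicates 2 (0.0974) and 3 (0.109) and heat replicates 1 (0.128) and 2 (0.109) of atdamt1. Its value then ran from -0.33 to -0.27. With the replicate block its adjusted p was 0.0546. After median-of-ratios scaling the difference was -0.12 in wild type and 0.03 in atdamt1. DCL2 shares 515 bases, 9.65% of its exons, with AT3G03305 on the same strand, so its level is uncertain.

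DCL3 (AT3G43920, chr3:15753387-15760859, plus strand), which makes the siRNAs bound by AGO4, did not reach 1 RPKM in any library and was the 1 member that failed the filter. It was listed at 0.895, 0.800 and 0.912 RPKM in wild-type control and 0.398, 0.432 and 0.812 RPKM after heat. In atdamt1 it stood at 0.910, 0.580 and 0.665 RPKM, then 0.399, 0.411 and 0.562 RPKM. The treatments overlapped in wild type through heat replicate 3, and did not overlap in atdamt1. With no filter on low values the log2 difference was -0.28 ± 0.11 (limma adjusted p = 0.0539) and -0.23 ± 0.11 (adjusted p = 0.0984).

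Of the 2 Argonaute members, AGO1 was called lower after heat and AGO4 was not. AGO1 (AT1G48410, chr1:17885633-17892632, minus strand) held 36.5, 37.7 and 30.1 RPKM in wild-type control and 23.0, 25.4 and 25.8 RPKM after heat. Those of atdamt1 held 31.4, 30.7 and 29.7 RPKM, then 23.3, 20.1 and 26.6 RPKM. All heat libraries lay below all controls. On the log2 scale AGO1 changed by -0.47 ± 0.12 (limma adjusted p = 0.00402) and -0.38 ± 0.12 (adjusted p = 0.0116). It lay close to the median gene, at -0.06 and 0.05 relative to it, and was 0.01 and 0.13 after median-of-ratios scaling, with no call. The atdamt1 call was lost without heat replicate 2 (-0.28, adjusted p = 0.0519).

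AGO4 (AT2G27040, chr2:11536502-11542391, minus strand) held 11.7, 12.2 and 8.98 RPKM in wild-type control and 13, 12.03 and 14.03 RPKM after heat. In atdamt1 it held 10.8, 10.6 and 8.98 RPKM, then 9.55, 11.3 and 10.7 RPKM. The treatments overlapped in both genotypes. The log2 difference was 0.24 ± 0.12 (95% interval -0.03 to 0.51; limma adjusted p = 0.108) and 0.06 ± 0.12 (-0.21 to 0.32; adjusted p = 0.705). Relative to the median gene AGO4 moved by 0.65 and 0.49. It was called higher under the other 3 scalings, at 0.70 and 0.55 after median-of-ratios scaling (adjusted p = 0.000309 and 0.00158) and at 0.64 and 0.49 after quantile scaling (adjusted p = 0.00150 and 0.00700).

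**Figure D2:**
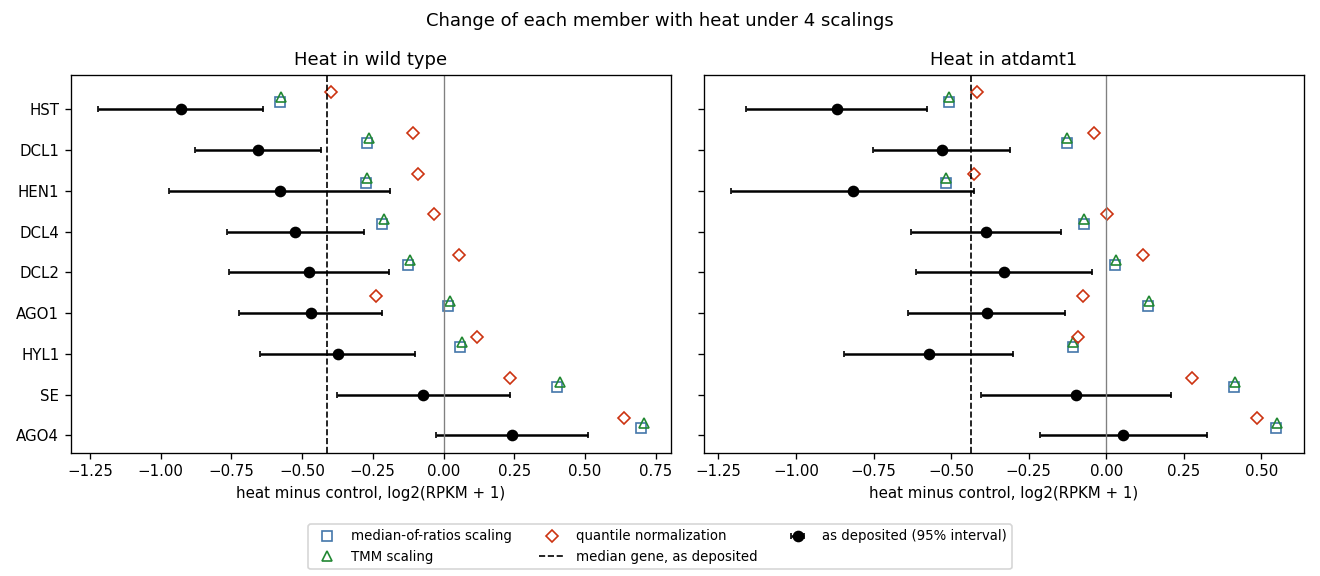
Heat minus control on the log2(RPKM + 1) scale for the 9 members tested, in wild type (left) and atdamt1 (right); black points with bars are the deposited scale with 95% intervals, open symbols are 3 other scalings, and the dashed line is the median gene. DCL1, HEN1 and HST are below 0 under every scaling in both genotypes. SE turns from just below 0 to above it, and AGO4 is above 0 throughout.

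A ratio of 2 members within a library does not depend on a scaling that multiplies the whole library. The pairs below were chosen after their values were seen, so they are given with no test. Each pair sets a member called lower with heat on the deposited scale against a member that was not. How often other pairs of genes separate without overlap was not counted. The ratio of AGO1 to AGO4 in RPKM was 3.13, 3.10 and 3.35 in wild-type control and 1.77, 2.11 and 1.84 after heat. In atdamt1 it was 2.92, 2.91 and 3.31, then 2.45, 1.78 and 2.48. Every heat library was below every control library of either genotype. The group means were 3.19 ± 0.134 and 1.91 ± 0.183 in wild type and 3.04 ± 0.232 and 2.23 ± 0.398 in atdamt1 (SD, n = 3 each). AGO1 therefore remained the more abundant of the 2 in all 12 libraries.

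The ratio of DCL1 to SE was 0.208, 0.231 and 0.243 in wild-type control and 0.111, 0.160 and 0.130 after heat. In atdamt1 it was 0.199, 0.210 and 0.229, then 0.159, 0.118 and 0.144. The heat libraries again lay below all controls. Averaged over genotypes the log2 change was -0.60 for AGO1 to AGO4 and -0.69 for DCL1 to SE.

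**Figure D3:**
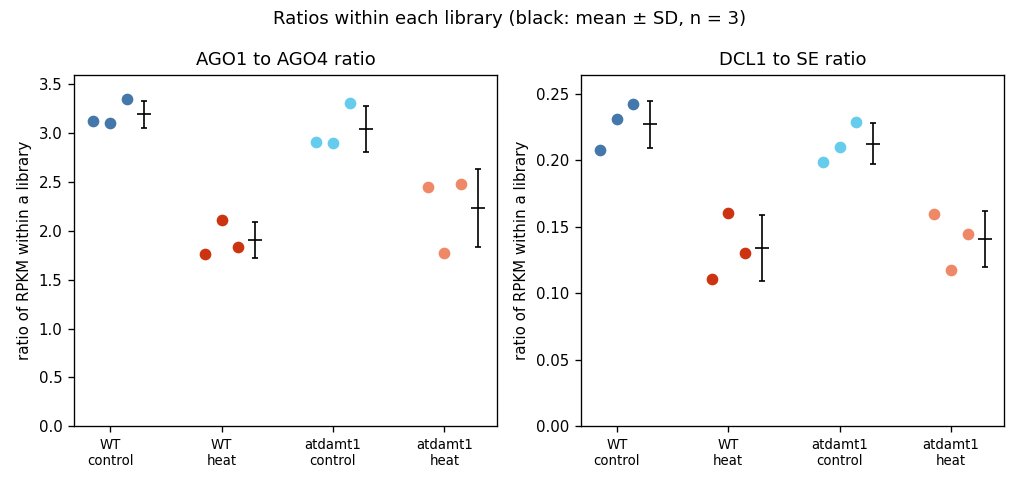
Ratio of AGO1 to AGO4 (left) and of DCL1 to SE (right) in RPKM within each of the 12 libraries, with the mean and SD of each group of 3 in black and axes from 0. The highest heat library has an AGO1 to AGO4 ratio of 2.48 and the lowest control library one of 2.91; for DCL1 to SE these are 0.160 and 0.199.

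No member differed between genotypes past the threshold by limma. In control 0.0113% of all genes tested were called (2 genes, AT1G75945 and AT3G01345, neither a member) and 0% after heat or for the difference of heat responses. At an unadjusted p below 0.05 there were 816, 1326 and 596 genes in these comparisons and 0, 1 and 0 members. In control the 9 members differed by -0.24 to 0.06 on the log2 scale (atdamt1 minus wild type), with 95% intervals that together span -0.52 to 0.40. After heat all 9 were below 0, from -0.28 to -0.02 with intervals from -0.63 to 0.25, while the median gene stood at -0.08. The intervals do not exclude values down to -0.63 or up to 0.40.

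DCL1, DCL2 and DCL4 had all atdamt1 control libraries below all wild-type control libraries, which held for 7.65% of all genes. Their log2 differences were -0.20 ± 0.10, -0.24 ± 0.13 and -0.16 ± 0.11 (limma adjusted p = 0.935 for each). DCL1 reached at most 4.02 RPKM in atdamt1 control, against at least 4.08 RPKM in wild type. After heat 1 member, AGO4, had all atdamt1 libraries below wild type, as did 11.7% of all genes. Its difference was -0.28 ± 0.12 (unadjusted p = 0.0409, limma adjusted p = 0.663). Heat against control without overlap, in the direction of a fall, was met by 56% of all genes in wild type and 58.6% in atdamt1, against 7 of 9 members in each.

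The heat responses of the members did not differ detectably between genotypes. The difference of the log2 responses (atdamt1 minus wild type) ran from -0.24 for HEN1 to 0.15 for DCL2, with 95% intervals that together span -0.79 to 0.55 and limma adjusted p of at least 0.979. Chloroplast-encoded genes took 3.17 to 6.01% of the RPKM sum in the heat libraries of atdamt1, against 0.628, 4.05 and 0.390% in those of wild type and at most 1.07% in every control library. When the share entered the fit as a covariate, the members called lower in atdamt1 heat numbered 2, against 25.5% of all genes called lower in that fit: DCL1 (-0.61, adjusted p = 0.0263) and AGO1 (-0.61, adjusted p = 0.0333). The share did not overlap between control and heat libraries of atdamt1. Calls lost in that fit therefore cannot be told apart from lost precision.

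**Figure D4:**
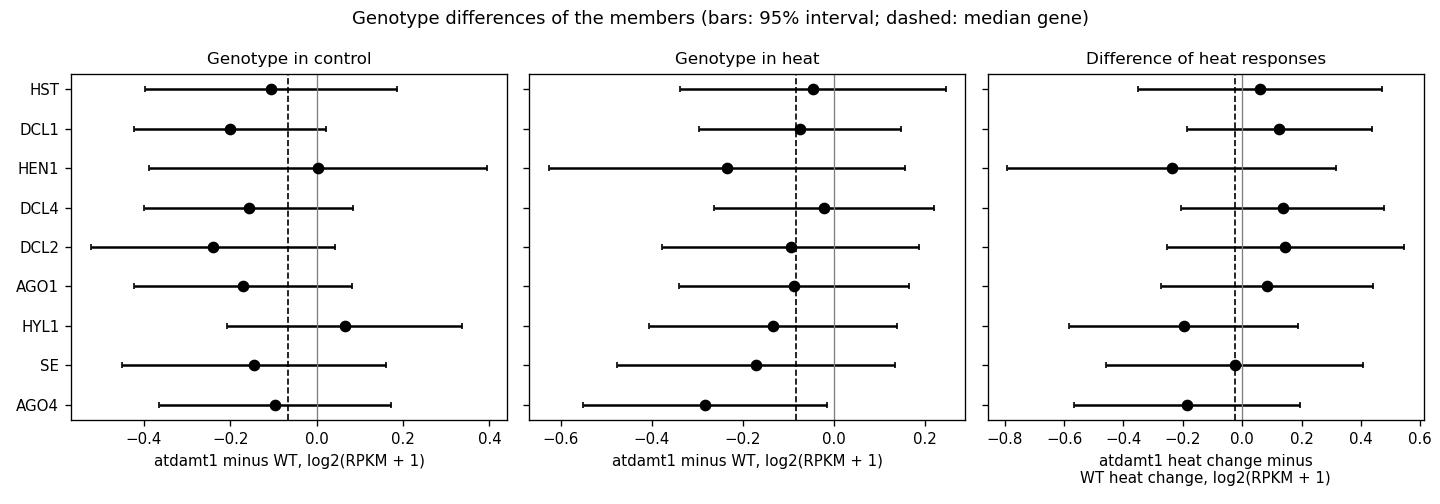
Genotype differences of the 9 members tested on the log2(RPKM + 1) scale, in control (left), after heat (middle) and as the difference of the heat responses (right), with 95% intervals; the dashed line is the median gene. The intervals cross 0 except that of AGO4 after heat, which runs from -0.55 to -0.01 and does not pass the adjusted test.

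Other genes of the pathway were read from 5 lists by locus. The counts of each list stand beside the shares of all genes tested. With heat 52.6% were called lower and 9.41% higher in wild type, and 56.2% and 10.3% in atdamt1. Whether any list differs from these shares was not tested. Of the other Argonaute genes, 3 of 7 passed the filter on low values, and 2 fell in each genotype with 0 higher. AGO7, which works in trans-acting siRNA production, averaged 1.89 ± 0.508 RPKM in wild-type control and 0.413 ± 0.103 after heat, and 2.14 ± 0.423 and 0.277 ± 0.0515 in atdamt1. Its log2 difference was -1.02 ± 0.15 (limma adjusted p = 0.000115) and -1.29 ± 0.15 (adjusted p = 1.9e-05), and it was lower under all 4 scalings. No heat library of AGO7 was above 0.497 RPKM, so it passed the filter only through its control libraries. Its call is therefore not independent of the filter. AGO2, an antiviral Argonaute, changed by -0.45 ± 0.16 (adjusted p = 0.0293) and -0.69 ± 0.16 (adjusted p = 0.00257). The wild-type call for AGO2 was lost without control replicate 1 or 3 or heat replicate 2 or 3 (adjusted p = 0.0630 to 0.111; values -0.44 to -0.35), which leaves 1 gene of the list. It was not called under the other scalings in either genotype, and its wild-type value turned to 0.09 under quantile scaling.

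Of the genes for siRNA synthesis and RNA-directed DNA methylation, 14 of 16 were tested, and 7 fell and 1 rose in each genotype. Among those counted as lower, CLSY1 (both genotypes) and RDR1 (wild type) passed the filter only through control libraries. RDR6, the RNA-dependent RNA polymerase of trans-acting siRNAs, went from 7.05 ± 0.278 to 2.43 ± 0.353 RPKM in wild type and from 6.37 ± 0.460 to 2.74 ± 0.170 RPKM in atdamt1. Its log2 difference was -1.24 ± 0.10 (limma adjusted p = 1.8e-06) and -0.98 ± 0.10 (adjusted p = 9.1e-06). IDN2, a double-stranded-RNA-binding protein of DNA methylation, changed by -1.04 in both, and SDE3, an RNA helicase, by -1.03 and -0.73. NRPD2A, the second subunit shared by RNA polymerases IV and V, was the gene that rose, from 5.33 ± 0.898 to 7.41 ± 0.633 RPKM and from 4.50 ± 0.124 to 6.26 ± 0.355 RPKM. Its log2 difference was 0.42 ± 0.11 (adjusted p = 0.00652) and 0.40 ± 0.11 (adjusted p = 0.00791), and it was higher under all 4 scalings in both genotypes.

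All 15 miRNA processing partners were tested, and 7 fell in wild type and 9 in atdamt1, with 0 higher. DRB2, a relative of HYL1, went from 26.3 ± 2.38 to 7.23 ± 0.347 RPKM in wild type and from 24.3 ± 1.24 to 7.43 ± 0.972 RPKM in atdamt1. Its log2 difference of -1.73 ± 0.10 and -1.59 ± 0.10 (limma adjusted p = 2e-07 and 3.3e-07) was larger than that of any member. DRB5, another relative, changed by -1.01 and -0.92, and MOS2, an RNA-binding protein that aids miRNA processing, by -0.99 and -0.85. DRB5 in atdamt1 was lower on the deposited scale only, of the 4.

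All 10 genes of small RNA turnover and Argonaute loading were tested, and 6 fell in each genotype with 0 higher. XRN2, a nuclear exoribonuclease, changed by -1.55 ± 0.15 and -1.41 ± 0.15 (limma adjusted p = 4.2e-06 and 7.6e-06). The small RNA degrading nuclease genes SDN3 and SDN1 changed by -1.45 and -1.57, and by -0.99 and -1.07. Of the genes lower under all 4 scalings there were, in wild type and atdamt1, 1 and 1 other Argonaute genes, 3 and 2 siRNA genes, 5 and 3 processing partners and 4 and 3 turnover genes. Such a call was met by 22.1% and 24.8% of all genes tested. The median log2 difference in wild type and atdamt1 was -0.45 and -0.69 for the 3 other Argonaute genes, -0.34 and -0.30 for the siRNA genes, -0.34 and -0.47 for the partners and -0.51 and -0.50 for the turnover genes. The median gene stood at -0.41 and -0.44. After median-of-ratios scaling some list genes were called higher: 2 and 4 siRNA genes, 4 and 2 partners and 2 turnover genes in each genotype. Under that scaling 28% and 27.5% of all genes tested were called higher. The 1 miRNA locus tested, MIR162A, was not called (-0.74 and -0.13). No gene of these lists was called between genotypes or for the difference of heat responses.

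**Figure D5:**
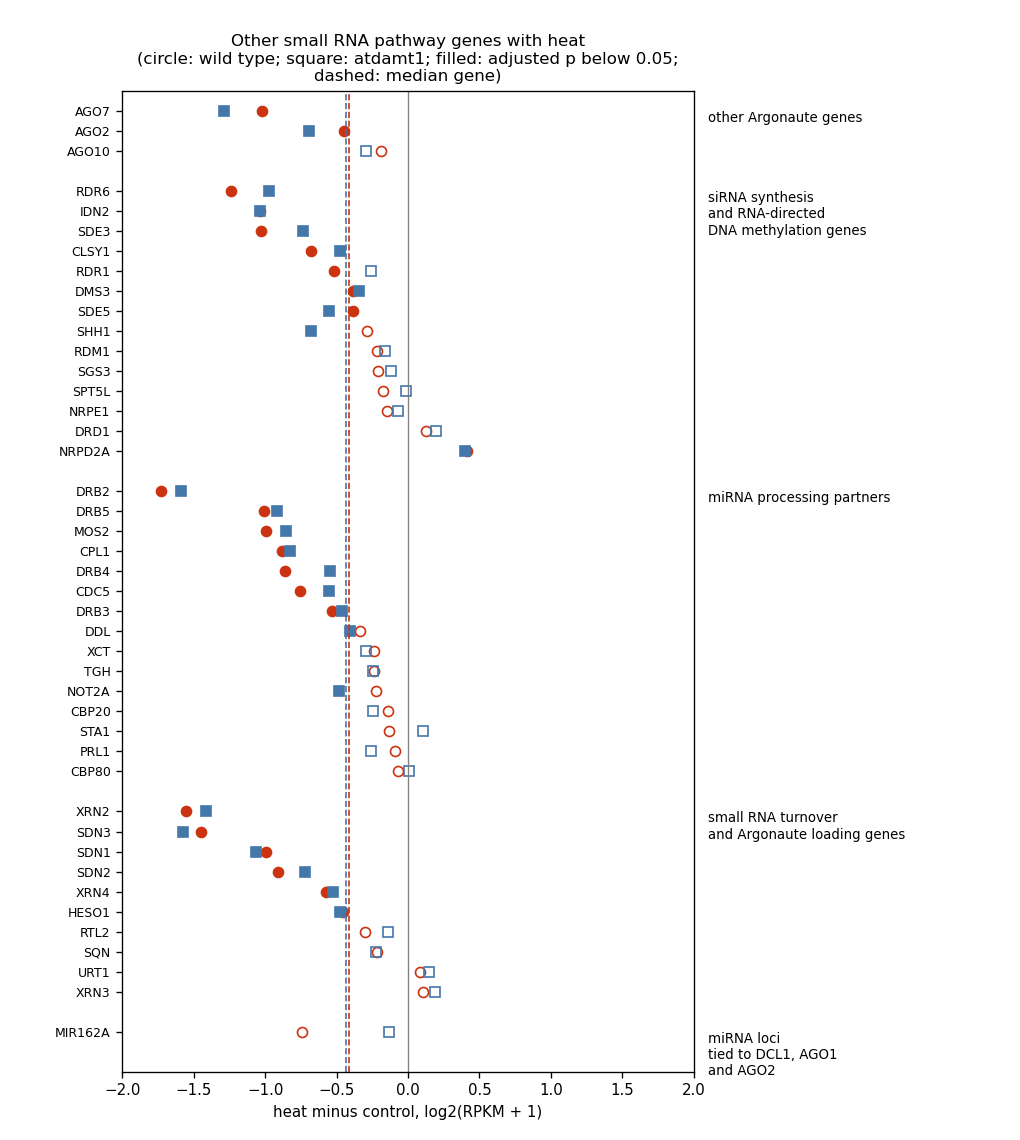
Heat minus control on the log2(RPKM + 1) scale for the tested genes of the 5 lists, in wild type (circles) and atdamt1 (squares); filled symbols have adjusted p below 0.05 on the deposited scale, and dashed lines are the median genes at -0.41 and -0.44. NRPD2A is the filled pair above 0, and DRB2 reaches -1.73.

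Likeness across the 12 libraries was computed for HST and AGO1 over log2(RPKM + 1). With the other members that fell, HST had Pearson r from 0.808 (HEN1) to 0.949 (DCL4), and AGO1 from 0.634 (HYL1) to 0.947 (DCL1). HST had r = 0.317 with SE and -0.334 with AGO4, and AGO1 had 0.393 and -0.108. Among all genes tested the 3 nearest to HST were OXP1 (r = 0.994), AT3G52760 (0.991) and AT3G10980 (0.990). The 3 nearest to AGO1 were emb2411 (0.972), DMS11 (0.967) and AT5G09670 (0.966). These values describe libraries that share the split into control and heat.

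The 250 bases before the annotated start of 3 members are shown, because HST had the largest fall on the deposited log2 scale, AGO4 was the member above 0 under every scaling, and AGO1 holds a run of the heat shock element. Heat shock factors bind such elements, repeats of TTC and GAA in alternating order. The motifs searched were TTCNNGAA and GAANNTTC, each the same on both strands, and a match is in capitals. The windows lie at chr1:17892633-17892882 (AGO1), chr3:1408303-1408552 (HST) and chr2:11542392-11542641 (AGO4), in build TAIR10.1, and are written along the minus strand.

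AGO1 promoter: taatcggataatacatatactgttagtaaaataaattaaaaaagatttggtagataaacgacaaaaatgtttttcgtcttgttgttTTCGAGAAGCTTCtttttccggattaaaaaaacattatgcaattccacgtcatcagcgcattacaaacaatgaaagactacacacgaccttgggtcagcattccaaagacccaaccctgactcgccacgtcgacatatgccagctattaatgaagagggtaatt
HST promoter: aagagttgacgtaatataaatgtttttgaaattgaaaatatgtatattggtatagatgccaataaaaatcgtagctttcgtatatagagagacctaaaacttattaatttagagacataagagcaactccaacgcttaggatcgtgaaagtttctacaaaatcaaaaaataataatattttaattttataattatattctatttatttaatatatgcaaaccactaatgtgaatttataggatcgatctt
AGO4 promoter: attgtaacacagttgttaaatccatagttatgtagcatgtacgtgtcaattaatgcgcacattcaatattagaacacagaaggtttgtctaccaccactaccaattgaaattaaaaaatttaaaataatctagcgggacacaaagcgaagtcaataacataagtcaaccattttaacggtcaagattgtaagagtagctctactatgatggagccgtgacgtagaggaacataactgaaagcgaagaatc

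In AGO1 both motifs overlap in TTCGAGAAGCTTC, a run of the form TTCNNGAANNTTC, 164 bases before the start. A run of that form or its reverse complement was found in 74 of 17230 promoters of tested genes (0.429%). DCL2, SE and HEN1 hold 1 TTCNNGAA each, at 47, 121 and 119 bases before the start, and the other members hold neither motif. Over all promoters TTCNNGAA was found in 7.56%, GAANNTTC in 9.11% and either in 15.6%.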

How the data were processed

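Seedling poly(A) RNA was sequenced in 12 libraries, grouped from the labels. The RPKM values were made by the authors and deposited as 1 table, and the submitters' processing notes name STAR, DESeq2 and TAIR10 with no role for any of them. What counted the reads, and how, is not given in the sources used here. RPKM is relative to the library total. Multiplied by TAIR10.1 exon lengths, the values came out as whole reads in all libraries, within 0.1 reads, for 23700 of 24599 genes (96.3%), which gave the depths. Replicates differed beyond sampling noise (chi-square per degree of freedom 12.4 to 43.6), so none were merged.

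The 17628 genes reaching 1 RPKM in 3 or more libraries were tested by limma 3.58.1 in R 4.3.3 on log2(RPKM + 1), which understates changes of low genes. The fit took all 12 libraries with 1 mean per group and a mean-variance trend; tests were two-sided with Benjamini-Hochberg adjustment and a threshold of 0.05. Median-of-ratios, TMM and quantile scaling were applied to the RPKM values as alternatives, beside pseudocounts, filters, weights, a replicate block, a chloroplast covariate and leaving out each library. The script was tested on simulated data.

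The members and the 5 lists (55 entries, matched by locus; AGO8 was dropped because the reference does not pair its locus with that name) were chosen with earlier results of these data known. Named were all members, AT1G19340, up to 3 rises and 3 falls per list in the heat comparisons, any list gene called between genotypes, and the 3 genes most correlated with HST, the member with the largest called fall in wild type on the deposited log2(RPKM + 1) scale, and with AGO1. No member was called higher on the deposited scale, so no likeness is given for a rise. Genes overlapping another are uncertain.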

Additional observations from a re-analysis of the deposited data

How the results depend on the processing

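Counts of members called depended on the scaling. Lower with heat in wild type were 7 as deposited, 2 with median-of-ratios or TMM scaling, 1 with quantile scaling and 2 with a mean RPKM of at least 5. Of all genes, 52.6, 27.4, 27.1, 26.5 and 49.3% were lower. In atdamt1 the counts were 7, then 2, 2, 1 and 2, and 2 with the chloroplast-encoded share as covariate, against 56.2, 27.3, 27.2, 29.4, 56.7 and 25.5% of all genes. Only 4 members (HYL1, SE, AGO1 and AGO4) reach that mean RPKM, so its 2 is of 4 and not of 9. Members called higher were 0 as deposited and 2, 2 and 1 under the 3 scalings in each genotype (28, 28.5 and 22.7% of all genes in wild type, 27.5, 27.6 and 23% in atdamt1). Leaving out each library gave 5 to 7 lower in each genotype and 0 higher, and 0 for each genotype comparison and for the difference of heat responses.

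The sign turned for HYL1 in wild type (0.058, 0.065 and 0.12 with median-of-ratios, TMM and quantile scaling), for AGO1 (0.015 and 0.023 in wild type, 0.13 and 0.14 in atdamt1 with the first 2) and for SE (0.40 and 0.41 in wild type, 0.41 and 0.42 in atdamt1). SE also turned with quantile scaling (0.23 in wild type, 0.28 in atdamt1) and with the chloroplast covariate (0.0084 and 0.25), without a call. DCL2 turned to 0.056 in wild type with quantile scaling and to 0.029, 0.031 and 0.12 in atdamt1 with the 3 scalings. With quantile scaling DCL4 turned to 0.0036 in atdamt1 and AGO2 to 0.090 in wild type. The scalings centre the median gene near 0, by construction.

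Counts lower with heat in the lists moved as follows. Shares of all genes lower under most of these settings are given above. They were 49.4% with the covariate in wild type, and 10280 of 24782 genes with no filter in atdamt1. Other Argonaute genes in wild type gave 0 with a mean RPKM of at least 5 and 1 with each scaling and the covariate. In atdamt1 they gave 4 with no filter, 0 with that mean, and 1 with each scaling and the covariate. The siRNA genes gave 1 with that mean and 3 with each scaling in wild type, and 1, 3, 3, 2 and, with the covariate, 2 in atdamt1. Only AGO10 of the other Argonaute genes reaches that mean RPKM, and only SGS3, NRPD2A and IDN2 of the siRNA genes. The counts with that mean are therefore not out of the 3 and 14 genes tested otherwise. Processing partners and turnover genes in atdamt1 gave 3 with each scaling and the covariate. Leaving out each library gave 1 to 2 other Argonaute genes in wild type, and 0 to 1 miRNA loci, where MIR162A was called without wild-type control replicate 1 or atdamt1 control replicate 3.

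Same-numbered libraries deviated together in some pairs and not in others (r from -0.425 to 0.527), so whether the numbers pair them is not settled. In atdamt1 each control library was closest to the heat library of the same number (r = 0.056, 0.279 and 0.241). In wild type none was. With the replicate block 7 members in wild type and 6 in atdamt1 were lower, DCL2 being lost, and 1 miRNA locus in wild type was called. Without a library, the ratio changes ran from -0.65 to -0.52 (AGO1 to AGO4) and from -0.76 to -0.63 (DCL1 to SE). At 40 to 108 reads in some libraries, HEN1 and DCL3 are the members whose values depth limits most. Other causes of these shifts were not tested.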

Other observations

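AGO4 and SE are neighbours on chromosome 2, 30.0 kb apart with 6 loci between them, of which 4 passed the filter on low values. EIL1, a transcription factor gene next to AGO4, changed by -0.28 and -0.22 with heat in wild type and atdamt1 and was not called (limma adjusted p = 0.0527 and 0.109). AT2G27060 was lower (-1.68 and -1.66), AT2G27090 was lower (-0.65 in both), and AT2G27080 was higher (2.17 and 1.04).

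AGO6, an Argonaute that acts beside AGO4 in DNA methylation, did not pass the filter. It is named after its values were seen. It held 0.958, 0.798 and 0.788 RPKM in wild-type control and 0.243, 0.219 and 0.307 RPKM after heat. In atdamt1 it held 0.953, 0.696 and 0.736 RPKM, then 0.233, 0.280 and 0.216 RPKM. All heat libraries lay below all controls, as for 56% of all genes tested in wild type and 58.6% in atdamt1.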
